A study of Mus musculus with 186 samples.

Results

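RNA from the somatosensory cortex of 12-week-old mice lacking Akap11 was compared with RNA from wild-type somatosensory cortex of the same age. The comparison rests on 10 libraries of the 186 in the series, chosen by their labels alone: 5 from Akap11 -/- mice (KO) and 5 from wild-type mice (WT). The 5 Akap11 +/- libraries (HET) of the same region and age entered the same fit and share its estimate of spread. The series as a whole covers 6 brain regions, 2 ages (4 and 12 weeks) and these 3 genotypes. Frozen brains were dissected in a cryostat, and polyadenylated RNA was sequenced in bulk. The labels name the genotypes only as wild type, Akap11 +/- and Akap11 -/- and list no drug, Cre driver or pooling. The strain and the way the allele was made are not stated in these sources. The labels number the samples of a group without saying that each comes from a separate animal, so p-values measure the spread between these samples, which may be technical in part.

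The 15 libraries held 26.7 to 73.3 M estimated counts, and levels are given below as CPM, counts per M counts after scaling between libraries. Replicate libraries differed by far more than counting noise, with a lowest chi-square per degree of freedom of 11.6 over 30 pairs. The Y-linked genes Ddx3y and Uty stood at 41.35 to 55.99 and 10.6 to 14.01 CPM over the 15 libraries, so every library held male RNA. Xist was not among the genes tested. The comparison says nothing of females. The tissue label was checked against marker genes. Genes of cortical excitatory neurons at large summed to between 6808 and 8669 CPM in the 15 libraries. Genes of striatal projection neurons summed to between 569.8 and 718.7 CPM in 14 libraries and to 1395 CPM in HET 5, which stands apart in this respect. Drd2, a dopamine receptor gene that marks the striatum, stood at 17.7 CPM in HET 5, at 0.34, 2.45, 0.88, 1.60 and 0.39 CPM in the KO libraries and at 0.14 to 0.34 CPM in WT. HET 5 enters no KO or WT mean, and without it edgeR called the same 4 genes in KO and Gm21685 besides. The part of striatal RNA in the results below was not tested.

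AKAP11 is an A-kinase anchoring protein, a scaffold that binds the regulatory subunits of protein kinase A (PKA). It also binds the phosphatase PP1 and the kinase GSK3, and it carries a motif for the LC3 proteins of the autophagosome. Through that motif it is known as a receptor that takes the type I regulatory subunit of PKA into autophagosomes for degradation. Protein-truncating variants of the human gene raise the risk of schizophrenia and bipolar disorder. The somatosensory cortex is a layered sheet in which excitatory neurons of layers 2 to 6, several interneuron classes and glia each express their own marker genes.

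Akap11 itself followed the labels in every library. Its level in the WT libraries was 203, 245, 238, 208 and 205 CPM, and in the HET libraries 116, 120, 118, 120 and 111 CPM. In the KO libraries it was 14.9, 16.7, 15.1, 12.8 and 13.3 CPM. The 3 genotypes did not overlap. The mean fell from 220 ± 20.1 CPM in WT to 14.6 ± 1.54 CPM in KO (SD, n = 5 each), a log2 fold change of -3.91 ± 0.08 (SE) with an edgeR adjusted p of 1.663e-15. In HET the log2 fold change against WT was -0.91, with an adjusted p of 4.349e-06. The gene lies at chr14:78492246-78536808 on the minus strand of GRCm38. None of the 10 tested genes on either side of it reached an unadjusted p under 0.05. Within 10 Mb of Akap11, 6 of 86 tested genes did so (6.98%), against 3.88% on other chromosomes. In 3 of the 86 (3.49%) the KO and WT libraries did not overlap, against 0.985% on other chromosomes.

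Beyond Akap11, 3 genes passed the edgeR test in the KO cortex, and all 3 were lower: Prkar1a, Wfs1 and Ccdc3. Of these only Ccdc3 was still called whichever single library was left out, as given below. In total 4 of 15893 genes passed an edgeR adjusted p of 0.05 (0.0252%), and 0 of them were higher in KO (0.0%). At an unadjusted p of 0.05 there were 619 genes (3.89%), 315 higher (1.98%) and 304 lower (1.91%). In 160 genes (1.01%) the 5 KO libraries did not overlap the 5 WT libraries, with 79 entirely above (0.497%) and 81 entirely below (0.51%). The median log2 fold change over all genes tested was -0.004.

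**Figure D1:**
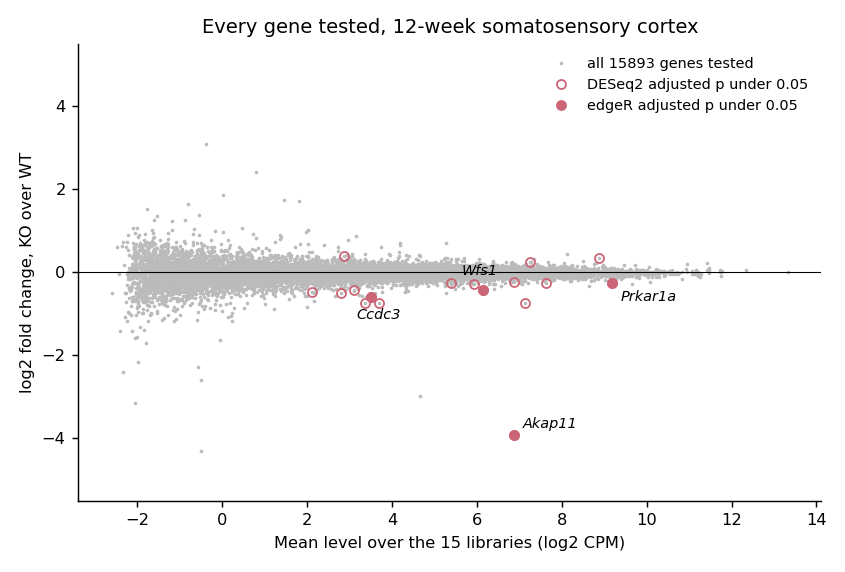
Each point is 1 of the 15893 genes tested, with its mean level over the 15 libraries (log2 CPM) on the x axis and its log2 fold change of KO over WT on the y axis. Filled circles mark the 4 genes with an edgeR adjusted p under 0.05 and open circles the 13 others called by DESeq2. Akap11 lies at -3.91, and the other 16 marked genes lie between -0.74 and 0.39.

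Prkar1a encodes RI alpha, the type I regulatory subunit that holds the catalytic subunits of PKA inactive until cyclic AMP binds. Its transcript stood at 581, 652, 627, 612 and 609 CPM in the WT libraries and at 516, 525, 524, 503 and 516 CPM in the KO libraries. Every KO library lay below every WT library. The mean fell from 616 ± 25.9 to 517 ± 8.72 CPM (SD, n = 5 each), a log2 fold change of -0.25 ± 0.04 (adjusted p 0.0398). The HET mean was 602 CPM, a log2 fold change of -0.03 against WT (adjusted p 0.9997). The gene lies at chr11:109649405-109669656 on the plus strand of GRCm38.

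Wfs1 encodes wolframin, a membrane protein of the endoplasmic reticulum, and in cortex it is a marker of upper-layer neurons. Its transcript stood at 86.2, 75.3, 82.4, 75.5 and 76.7 CPM in the WT libraries and at 60.4, 57.6, 56.4, 61.5 and 59.7 CPM in the KO libraries. The groups did not overlap. The mean fell from 79.2 ± 4.86 to 59.1 ± 2.06 CPM, a log2 fold change of -0.42 ± 0.07 with an adjusted p of 0.0398. HET averaged 74.4 CPM (log2 fold change -0.09, adjusted p 0.9997), with HET 4 at 89.9 CPM above every WT library. The gene lies at chr5:36966104-36989205 on the minus strand.

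Ccdc3 encodes a secreted coiled-coil protein. Its transcript stood at 13.0, 14.98, 12.4, 12.3 and 11.9 CPM in the WT libraries and at 8.52, 8.50, 8.80, 7.84 and 8.96 CPM in the KO libraries, again without overlap. The mean fell from 12.9 ± 1.22 to 8.52 ± 0.43 CPM, a log2 fold change of -0.60 ± 0.07 with an adjusted p of 0.00297. HET averaged 12.4 CPM, a log2 fold change of -0.06 (adjusted p 0.9997). The gene lies at chr2:5137776-5230878 on the plus strand. Whether the KO and HET values of these 3 genes differ was not tested.

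**Figure D2:**
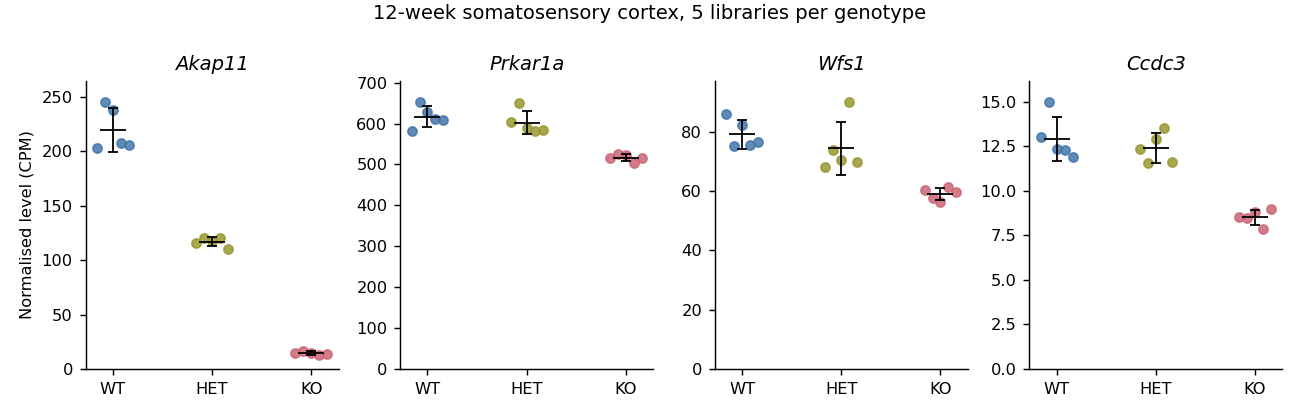
Normalised level (CPM, axis from 0) of Akap11, Prkar1a, Wfs1 and Ccdc3 in each of the 15 libraries of 12-week somatosensory cortex, by genotype. Points are libraries, the horizontal mark is the mean and the bar is 1 SD (n = 5 per genotype). The KO points lie below every WT point in all 4 panels, while the HET points of Prkar1a, Wfs1 and Ccdc3 overlap the WT points.

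The calls differed in how much they rested on single libraries. When each of the 10 KO and WT libraries was left out in turn, Akap11 and Ccdc3 were called in 10 of 10 fits. Prkar1a was called in 1 of 10, the fit without WT 1, and its adjusted p ranged from 0.0158 to 0.177. Wfs1 was called in 0 of 10, with adjusted p from 0.0630 to 0.209. The log2 fold changes themselves moved little, between -0.28 and -0.23 for Prkar1a and between -0.44 and -0.39 for Wfs1. DESeq2 called all 4 genes, with adjusted p of 2.473e-06 for Prkar1a, 3.734e-05 for Wfs1 and 8.253e-10 for Ccdc3.

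The windows around the start sites of the 3 genes are shown because these were called lower together with Akap11, and because PKA acts on the transcription factor CREB. Each window holds the 250 bases before the start site and 50 after, from RefSeq on GRCm38.p6, read 5′ to 3′ on the gene's own strand. Capitals mark the cyclic AMP response element TGACGTCA and its core TGACG, searched on both strands, so that the shorter motif also appears as CGTCA and lies within each full element on both strands. For Prkar1a, 1 of 6 listed windows is shown, picked because it holds the full element, at chr11:109650699-109650998 on the plus strand. The windows of Ccdc3, at chr2:5137526-5137825 on the plus strand, and of Wfs1, at chr5:36988933-36989232 on the minus strand, are the listed ones.
Prkar1a: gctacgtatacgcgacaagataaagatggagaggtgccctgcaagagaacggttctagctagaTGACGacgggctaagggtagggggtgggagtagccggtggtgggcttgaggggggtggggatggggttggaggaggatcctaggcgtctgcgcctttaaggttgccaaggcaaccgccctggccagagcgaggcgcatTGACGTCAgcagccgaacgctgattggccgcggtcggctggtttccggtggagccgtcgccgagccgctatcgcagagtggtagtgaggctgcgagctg
Ccdc3: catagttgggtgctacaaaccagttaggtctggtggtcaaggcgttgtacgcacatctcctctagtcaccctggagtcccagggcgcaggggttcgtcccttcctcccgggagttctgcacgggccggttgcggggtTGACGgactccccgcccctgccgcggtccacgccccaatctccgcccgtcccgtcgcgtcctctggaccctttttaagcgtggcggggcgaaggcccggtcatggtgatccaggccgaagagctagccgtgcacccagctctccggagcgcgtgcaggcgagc
Wfs1: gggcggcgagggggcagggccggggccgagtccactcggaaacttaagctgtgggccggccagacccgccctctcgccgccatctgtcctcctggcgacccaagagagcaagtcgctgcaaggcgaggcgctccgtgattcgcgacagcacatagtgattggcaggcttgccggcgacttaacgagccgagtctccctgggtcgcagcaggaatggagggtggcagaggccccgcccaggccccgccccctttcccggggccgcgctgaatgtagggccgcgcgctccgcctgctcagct
The Prkar1a window holds 1 full element and 3 matches of the core, 2 of them within the full element. Another listed window of the gene overlaps it and holds the same element, and the other 4 hold none. Of the 32851 mouse windows of this length 1.79% hold the full element, a share that is no test of a window picked for holding it. The Ccdc3 window holds 1 core match, and 20.8% of all windows hold at least 1. The Wfs1 window holds 0 of either. A match of letters is a description of the window and not a measured binding site.

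The precision of the comparison sets what it could show. The 95% interval of the log2 fold change lay within 1.5-fold in either direction for 12679 of the 15893 genes (79.8%), and for 12203 of the 12845 genes whose average level was 1 or more in log2 CPM. The median distance from the estimate to the end of its interval was 0.19 on the log2 scale. For most genes a change of 1.5-fold was thus outside the interval.

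Among the subunits and inhibitors of PKA, no gene but Prkar1a passed the test. Thus 1 of 9 listed genes was called, against 0.0252% of all genes, with 3 of the 9 above 0 and 6 below. The catalytic subunit genes Prkaca and Prkacb had log2 fold changes of 0.01 ± 0.04 and -0.0003 ± 0.05. Prkar1b, the neuronal type I regulatory subunit, averaged 1294 ± 93.4 CPM in WT and 1201 ± 51.1 CPM in KO (log2 fold change -0.11 ± 0.05). The type II regulatory subunits Prkar2a and Prkar2b stood at -0.04 ± 0.06 and -0.04 ± 0.05. The inhibitor genes Pkia and Pkib were at 0.14 ± 0.12 and 0.19 ± 0.12, neither past the test. The 95% interval of each of these genes held 0. The median of the list was -0.002.

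Of the 13 genes for proteins that bind AKAP11 (GSK3, PP1, LC3 and VAP families and Iqgap1), 0 passed the test, 11 were above 0 and 2 below, and the median log2 fold change was 0.03. Ppp1cc, the gamma catalytic subunit of PP1, was the one whose KO libraries all lay above WT, where 0.497% of all genes tested did so. It stood at 170, 179, 172, 173 and 171 CPM in WT and 185, 194, 186, 198 and 181 CPM in KO, a log2 fold change of 0.13 ± 0.04 (adjusted p 0.9755). The kinase genes Gsk3a and Gsk3b had log2 fold changes of 0.004 ± 0.05 and -0.02 ± 0.06. The autophagosome genes Map1lc3a, Map1lc3b and Gabarap stood at 0.10 ± 0.06, 0.04 ± 0.04 and 0.05 ± 0.05. None of these was distinguishable from 0 after adjustment.

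The wider cyclic AMP pathway also held no called gene. Of 24 adenylyl cyclases and cyclic AMP phosphodiesterases, 1 was higher and 1 lower at an unadjusted p of 0.05, against 1.98% and 1.91% of all genes. These were Pde1a, a calcium-activated phosphodiesterase, at 0.21 ± 0.08, and Pde11a, a phosphodiesterase for both cyclic nucleotides, at -0.37 ± 0.11, whose KO libraries lay entirely below WT. Among 26 tested A-kinase anchoring protein genes and 12 CREB, CRTC and SIK genes, 0 reached that level in either direction. The medians of the 3 lists were 0.01, -0.01 and -0.06. Sik1, a kinase gene that CREB is known to drive, stood at 11.4 ± 4.56 CPM in WT and 14.3 ± 5.74 CPM in KO, with overlapping libraries.

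DESeq2 called 17 genes (0.107%), with 3 higher in KO (0.0189%) and 14 lower (0.0881%). They were the 4 genes above and 13 others, 3 higher and 10 lower. None of these 13 passed the edgeR test, so they are given here by their values. Nrsn1, a neuron-specific membrane protein of vesicles, stood at 416, 427, 402, 429 and 436 CPM in WT and 544, 469, 513, 581 and 578 CPM in KO. Its groups did not overlap, the log2 fold change was 0.35 ± 0.07, and the adjusted p was 0.180 in edgeR and 0.00453 in DESeq2. N4bp3 averaged 6.24 ± 0.47 CPM in WT and 8.16 ± 0.62 CPM in KO. Tmem151b averaged 143 ± 5.85 and 171 ± 5.56 CPM. In both genes the KO libraries lay above all WT libraries.

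The genes lower by DESeq2 alone numbered 10. Timp2, an inhibitor of matrix metalloproteinases, stood at 189, 209, 217, 219 and 214 CPM in WT and 172, 178, 170, 175 and 182 CPM in KO (log2 fold change -0.26 ± 0.05, edgeR adjusted p 0.0843). Kirrel3, an adhesion molecule of synapses, averaged 44.8 ± 1.53 CPM in WT and 37.5 ± 1.90 CPM in KO (log2 fold change -0.26 ± 0.05, edgeR adjusted p 0.0938). Ptprf, a receptor phosphatase of the LAR family, averaged 66.6 ± 5.70 and 55.3 ± 2.71 CPM. In these 3 genes no KO library reached the lowest WT library. Slc30a3, which loads zinc into the synaptic vesicles of excitatory neurons, averaged 127 ± 1.73 CPM in WT and 108 ± 7.53 CPM in KO. P2ry13, a purine receptor found on microglia, averaged 9.87 ± 0.86 and 7.31 ± 0.83 CPM.

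Further members of that group were Otof, Spag6, Kctd4, Myh7 and Gm21685. Otof, a calcium sensor of vesicle fusion and a layer 2 and 3 marker, averaged 15.5 ± 3.97 CPM in WT and 9.28 ± 1.43 CPM in KO, with WT 2 at 9.83 CPM inside the KO range. Without WT 2 edgeR called it as well. Myh7, a myosin heavy chain, averaged 12.4 ± 1.64 and 7.43 ± 0.94 CPM (log2 fold change -0.74 ± 0.13, edgeR adjusted p 0.0843), without overlap. Kctd4 averaged 7.93 ± 0.64 and 5.58 ± 0.49 CPM, without overlap. Spag6 averaged 4.98 ± 0.62 and 3.57 ± 0.21 CPM. Of the 16 genes called by DESeq2 that have a position, counted without Akap11, 3 lie on chromosome 14, the chromosome of Akap11, where 3.57% of all tested genes lie. They are Kctd4, 2.53 Mb from Akap11, Gm21685 at 8.91 Mb and Myh7 at 23.5 Mb.

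The largest differences were ranked by size. Under 3 limits together, an unadjusted p under 0.01, no overlap and a mean level of 1 or more in log2 CPM, 65 genes remained, 30 higher and 35 lower. The 8 largest on the higher side were Foxp2 (0.87), Krt80 (0.68), Pdlim1 (0.67), Trbc2 (0.61), Lypd6b (0.49), Plekha7 (0.40), Lypd6 (0.40) and N4bp3 (0.39), all log2 fold changes. None passed the test, and their edgeR adjusted p lay between 0.355 and 0.9996. On the lower side, after Akap11, stood Myh7, Gm21685, Ccdc3, Tusc5 (-0.52), Slc25a34 (-0.51), Kctd4 (-0.51) and Glra3 (-0.48).

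Of 13 genes of layer 6 and the subplate, 0 passed the test. In this list 10 were above 0 and 4 were higher at an unadjusted p of 0.05, against 1.98% of all genes, and the median log2 fold change was 0.27. In 2 of them, Foxp2 and Rprm, the KO libraries lay entirely above WT, as in 0.497% of all genes. Foxp2, a transcription factor of layer 6 corticothalamic neurons, stood at 6.12, 3.50, 6.45, 7.37 and 7.67 CPM in WT and 8.47, 13.1, 12.5, 10.9 and 11.6 CPM in KO, without overlap. Rprm, another layer 6 marker, averaged 13.1 ± 4.22 CPM in WT and 21.3 ± 3.06 CPM in KO, also without overlap. Syt6 averaged 14.3 ± 2.85 and 22.4 ± 5.71 CPM, and Tle4 averaged 40.9 and 49.2 CPM, both with overlap. The adjusted p of all 4 was 0.9996. Ntsr1, the receptor gene that defines corticothalamic neurons, had a log2 fold change of 0.39 ± 0.27. Foxp2 stood at 12.1 CPM in HET 5, the library with raised striatal genes, and KO 2 had the highest Foxp2 and Drd2 of the KO libraries. It was also high where Drd2 was low, at 14.9 CPM in HET 1 (Drd2 0.29 CPM) and 11.6 CPM in KO 5 (Drd2 0.39 CPM). The part of striatal RNA in these values was not tested.

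The summed level of the layer 6 list ranged from 259.1 to 303.1 CPM in WT and from 301.8 to 359.9 CPM in KO, with KO 1 as the lowest KO library. The HET libraries spanned 259.3 to 383.7 CPM, and HET 1 (381.4 CPM) and HET 5 (383.7 CPM) lay above every KO library. The HET median against WT was 0.33. In a bulk sample, fewer cells of a type and less RNA per cell cannot be told apart, and neither can the depth of a dissection. With the mean level of this list as a covariate, a setting chosen after its values were seen, Akap11 and Ccdc3 were still called. Prkar1a and Wfs1 were then not (adjusted p 0.154 each), with log2 fold changes of -0.24 and -0.39.

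Of 13 genes of layers 2 and 3, 1 was called (Wfs1), against 0.0252% of all genes. In this list 10 were below 0 and 5 were lower at an unadjusted p of 0.05, against 1.91% of all genes, and the median was -0.19. Besides Wfs1 and Otof, these were Calb1, a calcium-binding protein gene (148 ± 11.2 CPM in WT, 129 ± 10.3 in KO), Rgs8 (87.6 ± 8.44 and 76.7 ± 5.29 CPM) and Lamp5, at a log2 fold change of -0.22 ± 0.10. The transcription factors Cux1 and Cux2, which mark the upper layers, stood at 0.02 ± 0.09 and -0.14 ± 0.09. The summed level of the list was 2016 to 2240 CPM in WT and 1761 to 2045 CPM in KO, with KO 5 alone reaching the WT range. Its HET median was -0.05. The KO median was -0.12 without KO 2, -0.13 without WT 2 and -0.12 without WT 3. Layers 4 and 5 had medians of -0.04 and 0.02 with 0 of 8 and 0 of 11 genes at an unadjusted p of 0.05. The 10 genes of excitatory neurons at large had a median of -0.0008, also with 0 at that level. With the layer 6 covariate, which itself differed between KO and WT, the median of layers 2 and 3 was -0.10, and what moved it was not tested.

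**Figure D3:**
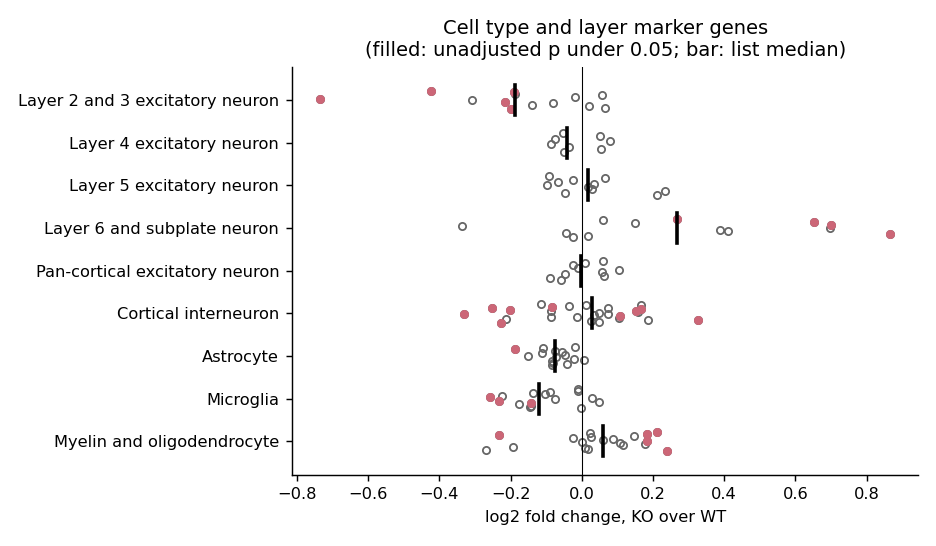
Log2 fold change of KO over WT (x axis) for every tested member of 9 marker lists (y axis), with filled circles for an unadjusted p under 0.05 and a black bar for the list median. The layer 2 and 3 genes lie mostly below 0 (median -0.19) and the layer 6 and subplate genes mostly above it (median 0.27), while layers 4 and 5 and the general excitatory neuron genes centre near 0.

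Of 26 interneuron genes 0 were called. At an unadjusted p of 0.05, 4 were higher and 5 lower, against 1.98% and 1.91% of all genes, and the median was 0.03. Pvalb, the calcium-binding protein of fast-spiking basket cells, averaged 107 ± 4.98 CPM in WT and 120 ± 4.39 CPM in KO, without overlap (log2 fold change 0.17 ± 0.05, adjusted p 0.9658). Cort, a neuropeptide gene close to somatostatin, averaged 3.94 ± 0.32 and 4.95 ± 0.53 CPM. Reln, the extracellular protein of layer 1 and other interneurons, averaged 58.7 ± 6.70 CPM in WT and 49.3 ± 5.89 CPM in KO, and Adarb2, a marker of interneurons from the caudal ganglionic eminence, 17.6 ± 1.78 and 15.1 ± 1.58 CPM. None of these differences passed the test.

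Glial and vascular lists held 0 called genes. Of 15 astrocyte genes 14 were below 0, with a median of -0.08, and the glutamate transporter gene Slc1a3 averaged 467 ± 52.2 CPM in WT and 410 ± 18.0 CPM in KO. Of 16 microglia genes 14 were below 0, with a median of -0.12; Itgam stood at -0.26 ± 0.08, Cx3cr1 at -0.23 ± 0.08 and the growth factor receptor Csf1r at -0.14 ± 0.06. Of 19 myelin and oligodendrocyte genes 15 were above 0, with a median of 0.06. Mbp, a main protein of myelin, averaged 659 ± 74.9 and 749 ± 35.9 CPM, while Pdgfra, the receptor of oligodendrocyte precursors, averaged 33.0 ± 2.42 CPM in WT and 28.0 ± 1.34 CPM in KO without overlap. Among 21 endothelial, mural and meningeal genes the median was -0.07. The choroid plexus gene Ttr was near 0 in both groups, at 0.88 ± 1.06 CPM in WT and 0.14 ± 0.18 CPM in KO.

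Of 28 postsynaptic density genes 0 were called, 24 were below 0 and 2 were lower at an unadjusted p of 0.05 (1.91% of all genes), with a median of -0.07. Nlgn3, an adhesion molecule of the synapse, averaged 121 ± 3.87 CPM in WT and 115 ± 2.17 CPM in KO. Of 25 genes of the synaptic vesicle and its release 0 were called and the median was 0.005, while 1 was higher (Vamp1, 0.10 ± 0.04) and 1 lower (Syn3, -0.26 ± 0.09) at that level. Of 10 genes with rare variants tied to schizophrenia, which do not include Akap11, 8 were below 0 with a median of -0.03, and 0 reached an unadjusted p of 0.05. The calcium channel gene Cacna1g was the closest, at 121 ± 12.2 CPM in WT and 104 ± 15.6 CPM in KO.

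Metabolic lists held 0 called genes. Of 21 genes of sterol synthesis and uptake 20 were above 0, with 4 higher at an unadjusted p of 0.05 (1.98% of all genes) and a median of 0.10. Insig1, a sensor that restrains the pathway, averaged 74.2 ± 11.4 CPM in WT and 90.4 ± 14.2 CPM in KO, with overlapping libraries. KO 2 was the lowest of the KO libraries for the summed list, at 1321 CPM against at most 1548 CPM. Of 30 oxidative phosphorylation genes 28 were above 0, with 3 at an unadjusted p of 0.05 and a median of 0.05. Cox5b, a subunit of cytochrome oxidase, averaged 129 ± 5.11 and 146 ± 9.79 CPM. The medians of these lists stood against -0.004 for all genes, and members of a list are not independent samples.

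Genes of the unfolded protein response (21), autophagy (35), the early response to neuronal activity (21) and the feedback inhibitors of the ERK kinase (13) held 0 members at an unadjusted p of 0.05 in either direction. Their medians were -0.04, 0.001, -0.008 and 0.05. Arc, a synaptic protein gene switched on by activity, averaged 222 ± 97.7 CPM in WT and 301 ± 100 CPM in KO, and its libraries overlapped. WT 1 was low for Arc, at 65.0 CPM, with the other WT libraries between 201 and 324 CPM. Npas4, a transcription factor of the same response, averaged 13.4 ± 5.09 and 10.4 ± 1.91 CPM. The spread between libraries in the early response genes was wide, and the 95% intervals of members reached down to -1.90 and up to 1.18.

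Near Akap11 on chromosome 14, a group of neighbouring genes about 9 Mb away differed between libraries in steps. These genes were chosen after their values were seen. Gm21685, now named Entpd4b in RefSeq (chr14:69555401-69584940), stood at 159, 172, 189, 190 and 143 CPM in WT and 100, 82.6, 92.3, 103 and 137 CPM in KO (log2 fold change -0.73 ± 0.12, edgeR adjusted p 0.0643). Its neighbour Gm16867 (chr14:69363504-69503362) stood at 46.1, 51.4, 48.5, 48.2 and 22.3 CPM in WT, at 20.8, 25.9, 23.1, 24.8 and 42.4 CPM in HET, and at 0.14, 0.03, 0.22, 0.10 and 25.8 CPM in KO. In each genotype the library numbered 5 thus lay apart from the other 4. Without KO 5, Gm16867 and Gm21685 were both called. At 4 weeks in this cortex Gm16867 stood at 48.5 CPM in KO 12 and 19.5 CPM in KO 51. It was at 0.159, 0.163 and 0.21 CPM in KO 161, KO 163 and KO 932. Akap11 was low in all of these KO libraries, between 10.9 and 14 CPM. In 4-week WT, Gm16867 was at 20.2 CPM in WT 142 and between 40.3 and 42.2 CPM in the others. What sets the level of Gm16867 in a library was not tested. How reads were split between these neighbouring genes and Entpd4 was not tested, and their values are uncertain to that extent.

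Whether the KO effect in this cortex differed between 12 and 4 weeks was tested in a single fit over both ages. It did so for 0 of 16358 genes by edgeR (0.0%), for 468 genes at an unadjusted p of 0.05 (2.86%) and for 1 gene by DESeq2 (0.00611%). That gene was Arc. At 4 weeks it fell from 451 ± 192 CPM in WT to 113 ± 51.7 CPM in KO (log2 fold change -1.99 ± 0.30, adjusted p 0.0223), while at 12 weeks its log2 fold change was 0.44 ± 0.35. The difference was 2.44 ± 0.49, with an adjusted p of 0.405 in edgeR and 0.0130 in DESeq2. At 4 weeks edgeR called 9 of all genes tested (0.0564%), Akap11, Arc, Arid3b, Dusp5, Frmd6, Irf2bp2, Kdm6b, Spry4 and Trib1, and all of them fell. At 12 weeks the log2 fold changes of the last 7 lay between 0.03 and 0.28, and none of the differences passed edgeR. Dusp5, a phosphatase that shuts off ERK, for example had -0.98 ± 0.17 at 4 weeks and 0.28 ± 0.27 at 12 weeks, a difference of 1.26 ± 0.33 (adjusted p 1.0). The 12-week library WT 1 was the lowest of its region and age for Arc (65.0 CPM) and Dusp5 (6.54 CPM). It was also the lowest for Irf2bp2, Kdm6b, Spry4 and Trib1, but not for Arid3b or Frmd6. In 4 of the 4-week libraries (KO 12, KO 163, WT 142 and WT 914) at most 5.55% of values above 0 were whole numbers, against 20.3% or more in the 12-week libraries. Without them the count was again 0 and the Arc difference was 2.80.

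The genes called at 12 weeks were not shown to differ between the ages. For Prkar1a the log2 fold change at 4 weeks was -0.24 ± 0.12, and the difference between the ages was -0.01 ± 0.13. For Wfs1 it was -0.07 ± 0.10 at 4 weeks with a difference of -0.34 ± 0.13, and for Ccdc3 -0.19 ± 0.12 with a difference of -0.40 ± 0.15. All 3 differences had an adjusted p of 1.0. Akap11 fell to 5.25% of WT at 4 weeks and to 6.64% at 12 weeks, a difference of 0.34 ± 0.10 on the log2 scale with an adjusted p of 1.0.

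The KO effect was then compared with that in prefrontal cortex at 12 weeks, a comparison that shares its somatosensory libraries with the next. The difference passed edgeR for 0 of 16645 genes (0.0%), reached an unadjusted p of 0.05 for 287 (1.72%) and passed DESeq2 for 3 (0.018%): Gm26673, Sccpdh and Barx2. Sccpdh, an oxidoreductase gene, stood at 33.0 ± 1.18 CPM in WT and 33.4 ± 1.79 CPM in KO somatosensory cortex, and at 141 ± 11.9 and 106 ± 6.41 CPM in prefrontal cortex, where edgeR called it among 0.0123% of genes. The difference was 0.44 ± 0.08 (edgeR adjusted p 0.184). Prkar1a had nearly the same log2 fold change in both, -0.25 ± 0.04 and -0.27 ± 0.05, a difference of 0.01 ± 0.07.

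Against the striatum, in contrast, many genes differed in their KO effect at 12 weeks. The difference passed edgeR for 185 of 16542 genes (1.12%), 118 above 0 (0.713%) and 67 below (0.405%), and DESeq2 for 307 (1.86%). At an unadjusted p of 0.05 it was found for 1497 genes (9.05%). Without STR WT 3, a striatal library, the edgeR count was 325. The fit took the libraries of both regions as independent, and with the number they share as a replicate block limma-voom called 357. Whether a number marks 1 animal is not stated, and Gm16867 set KO 5 apart in the cortex but KO 3 in the striatum. Of the 185 genes, 174 were called in the striatum itself and 0 in the somatosensory cortex, and 178 were tested in both regions. Over those 178 the median absolute log2 fold change was 0.68 in striatum and 0.08 in somatosensory cortex. Of them 176 had the smaller change in the cortex. These genes were chosen for differing between the regions, so this describes them and tests nothing. Over all genes tested in somatosensory cortex the median was 0.06. The smallest p belonged to Igfbp6, a secreted binder of insulin-like growth factors. It fell from 13.1 ± 1.10 to 2.74 ± 0.46 CPM in striatum, against 52.6 ± 4.46 and 47.0 ± 3.15 CPM in somatosensory cortex, a difference of 2.10 ± 0.12 with an adjusted p of 3.42e-12. Pitpnm3, a lipid transfer protein gene, fell in striatum by 1.69 ± 0.10 on the log2 scale, against -0.09 ± 0.07 in the cortex, a difference of 1.61 ± 0.13 (adjusted p 2.63e-09).

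Of the 13 genes that DESeq2 alone called in the cortex, 2 had a KO effect that differed from the striatum by edgeR, against 1.12% of all genes. Both had a difference below 0. The 13 genes, Wfs1 and Prkar1a were chosen for their KO effect in these same cortex libraries, which favours a difference. The count and values describe them and are no independent test. Myh7 had a log2 fold change of -0.74 ± 0.13 in cortex and 0.13 ± 0.11 in striatum, a difference of -0.86 ± 0.18 (adjusted p 0.00929). Kirrel3 had -0.26 ± 0.05 in cortex and 0.28 ± 0.12 in striatum, a difference of -0.53 ± 0.13 (adjusted p 0.0362). Wfs1 stood at 0.53 ± 0.23 in striatum, where WT libraries averaged 147 ± 51.9 CPM, and its difference of -0.94 ± 0.25 missed the threshold in edgeR (adjusted p 0.0606) and passed it in DESeq2 (0.0406). For Prkar1a the difference was -0.21 ± 0.07 (adjusted p 0.178).

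**Figure D4:**
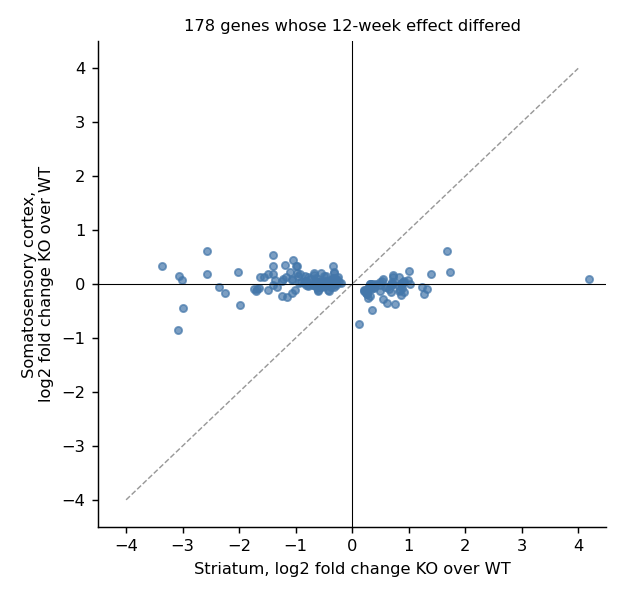
Log2 fold change of KO over WT at 12 weeks in striatum (x axis) and in somatosensory cortex (y axis) for the 178 genes tested in both regions whose effect differed between them, with the dashed line marking equal change. The points spread along the striatal axis and stay close to 0 on the cortical axis, with median absolute changes of 0.68 and 0.08.

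Across all 12 sets of region and age, Prkar1a was lower in KO than in WT in 12 of 12 and called in 1, the 12-week somatosensory cortex. That set, for which the gene was chosen, is counted among the 12. Sample numbers recur across regions, and whether a number marks 1 animal is not stated. The 12 sets thus cannot be taken as independent comparisons. Its log2 fold change ranged from -0.37 in the 4-week prefrontal cortex to -0.02 in the 4-week striatum. At 12 weeks it was -0.27 ± 0.05 in prefrontal cortex, -0.21 ± 0.05 in substantia nigra, -0.18 ± 0.05 in thalamus, -0.10 ± 0.05 in hippocampus and -0.04 ± 0.06 in striatum. Wfs1 was lower in 10 of 12 sets and Ccdc3 in 6 of 12, and each was called only in the 12-week somatosensory cortex. The log2 fold changes ran from -1.03 to 0.53 for Wfs1 and from -1.79 to 1.46 for Ccdc3. The share of all tested genes that were called was 3.35% in the 4-week striatum and 4.42% in the 12-week striatum. Elsewhere it was low, at 0.0564% and 0.0252% in somatosensory cortex at the younger and older age, 0.0125% and 0.0123% in prefrontal cortex, and 0.0128% and 0.0064% in thalamus. The substantia nigra had 0.00617% and 0.0364%, and the hippocampus 0.00609% and 0.00608%. Whether these regions differ from the somatosensory cortex was tested only for the prefrontal cortex and the striatum, as given above.

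**Figure D5:**
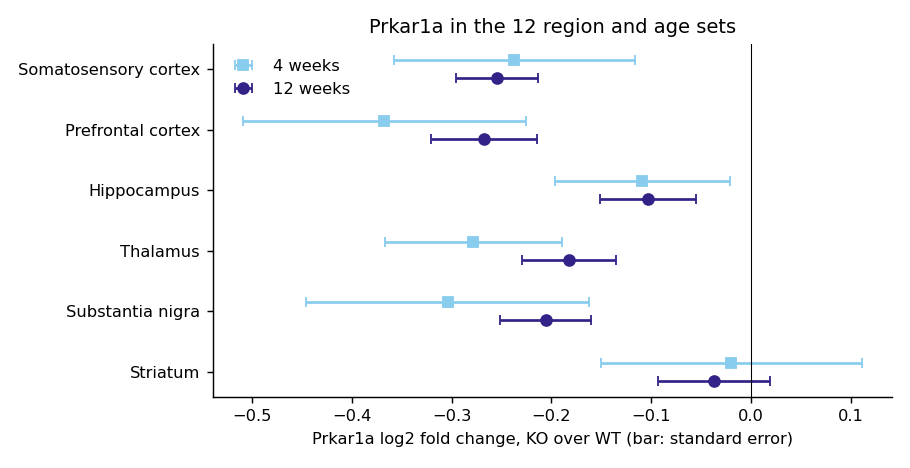
Prkar1a log2 fold change of KO over WT (x axis, bars are the standard error) in 6 brain regions (y axis) at 4 weeks (squares) and 12 weeks (circles). All 12 values lie below 0, from -0.37 to -0.02, and the striatal ones lie closest to 0. Sample numbers recur across regions, so the values may not be independent.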

How the data were processed

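Bulk RNA of dissected frozen brain (RNeasy, 200 ng into TruSeq Stranded mRNA, per the labels' protocols) was sequenced, and the authors deposited 1 table of estimated counts for 28338 genes in 186 libraries. Salmon and mm10 are named in the submitters' processing notes, and no source used here states the annotation. In the 12-week somatosensory libraries 75.6% of deposited estimated counts above 0 were not whole, so they were rounded. R 4.3.3 was used with edgeR 4.0.16 (TMM scaling, filterByExpr by group, quasi-likelihood F test, Benjamini-Hochberg adjustment over all genes tested, called at an adjusted p under 0.05). All 15 libraries, WT, HET and KO, entered a single fit, and a standard error is the log2 fold change over the square root of F. Libraries held 26.7 to 73.3 M counts. Differences between ages or regions were interaction terms in fits over both sets. Alternatives were DESeq2 1.42.0, limma 3.58.1 (voom), sva 3.50.0, other scaling and filters, a replicate block and leaving out each library. Leaving out HET 5, the layer 6 covariate and leaving out 4 libraries at 4 weeks were chosen after seeing the data. The code was tested on simulated data.

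The comparison, the gene lists and the tests were chosen with earlier results of these data known. Genes are named by rule: Akap11, genes called by edgeR or DESeq2, the 8 largest differences in each direction under an unadjusted p of 0.01, a mean log2 CPM of 1 and no overlap, up to 4 genes of smallest p per list, the 4-week calls and the 2 smallest p per difference. The other PKA subunits, GSK3 and autophagosome genes, Ntsr1, Cux1, Cux2, Lamp5, Gm26673, Gpr139 and the genes near Entpd4 were added after their values were seen. Positions are from GENCODE M21 on GRCm38 (96.8% of genes tested) or RefSeq (2.47%), and 0.68% had none. Promoter windows are from RefSeq. Values of some list members are not reported here.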

Additional observations from a re-analysis of the deposited data

Results flagged for a closer look

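Within genotypes of the 12-week somatosensory cortex, 189 groups of 5 libraries were screened for 1 library far from the other 4. The screen covered 35 genes and 28 summed lists, and 22 groups were flagged. Chance alone marks about 1 in 20 of independent groups. The screened genes include Gm16867 and Gm27221, chosen after their values were seen, and the lists share libraries and some members. The count of 22 is thus a description and no test against that rate. Wfs1 stood at 89.9 CPM in HET 4 against 68.2 to 73.8 in the other HET libraries. Otof was 6.81 CPM in KO 4 against 9.56 to 10.5, Ptprf 76.4 CPM in WT 3 against 62.9 to 66.8, and Spag6 3.92 CPM in WT 2 against 5.06 to 5.52. Tmem151b was 180 CPM in KO 2 against 167 to 170, Glra3 2.78 CPM in HET 2 against 2.12 to 2.28, and Ppp1cc 168 CPM in HET 4 against 178 to 182.

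Genes beside Entpd4 on chromosome 14 set apart the library numbered 5. Gm16867 stood at 22.3 CPM in WT 5 against 46.1 to 51.4 in the other WT libraries, at 42.4 CPM in HET 5 against 20.8 to 25.9, and at 25.8 CPM in KO 5 against at most 0.22. Gm27221, an antisense gene there, was 0.496 CPM in HET 5 against 0.12 to 0.228 and 0.163 CPM in KO 5, where the other KO libraries were at 0.

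Of the summed lists, in CPM, PKA genes were 2700 in KO 2 against 2840 to 2890, and sterol genes 1320 in KO 2 against 1490 to 1550. Unfolded protein response genes were 2230 in HET 2 against 1470 to 1640 and 2120 in KO 2 against 1510 to 1620. Layer 4 genes were 1270 in WT 2 against 959 to 1050, and genes of excitatory neurons at large 8670 in HET 4 against 7490 to 7680. WT 1 stood apart for interneuron genes (2630 against 2820 to 2880), vascular genes (463 against 326 to 365) and synaptic vesicle genes (20600 against 23100 to 23700). Striatal genes were 1400 in HET 5 against 570 to 641.

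The KO effect differed between somatosensory cortex and striatum for 185 genes by edgeR's interaction test. Among those named, the difference on the log2 scale was -0.53 for Kirrel3, -0.86 for Myh7, 2.10 for Igfbp6 and 1.61 for Pitpnm3.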

How the results depend on the processing

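The count of 4 called genes was 4 with other size factors, without the filter and with a stricter one, 5 with KO and WT libraries alone or without HET 5, and 6 with 1 surrogate variable. It was 17 with DESeq2, 2 with the layer 6 covariate and 2 to 5 when 1 library was left out. Akap11 and Ccdc3 were called in all 19 settings, Prkar1a in 7 and Wfs1 in 8, with no sign reversed. Prkar1a was lost without the filter (adjusted p 0.0777) and with KO and WT libraries alone (0.0869). Without the filter Gm21685 was called in its place. The genes called with KO and WT libraries alone were Akap11, Ccdc3, Wfs1, Myh7 and Gpr139. Gpr139 was higher in KO there, with a log2 fold change of 3.10 (edgeR adjusted p 0.0229). With the replicate number as a block (replicate block) 8 genes were called. The labels do not say that a number pairs animals. Deviations of same-numbered KO and WT libraries correlated at -0.05 to 0.26, and 0 of 5 correlated best with its own number. DESeq2 called 1 gene for the difference between ages and 3 for that from prefrontal cortex, where edgeR called 0 in each of 20 fits that left out a library. For the striatum the count of 185 was 307 with DESeq2, 357 with limma-voom and the replicate number shared by regions as a replicate block, and 130 to 325 when 1 library was left out. Leaving out single libraries, another filter or scaling left the number of genes with intervals within 1.5-fold between 12188 and 12955. The choroid plexus list had no member under the stricter filter. The cause of each move was not tested.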

Other observations

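The step between libraries in Gm16867, a gene beside Entpd4 on chromosome 14 chosen after its values were seen, was followed through the other 12-week regions. In WT the library numbered 5 was the lowest in all 6 regions, at 7.43 CPM in hippocampus, 9.72 in prefrontal cortex, 7.94 in substantia nigra, 12.4 in striatum and 30.9 in thalamus, where the other WT libraries held at least 15.3 CPM. In HET the library numbered 5 was the highest in all 6 regions. In KO the library numbered 5 stood at 7.59 CPM in hippocampus, 8.41 in prefrontal cortex, 9.43 in substantia nigra, 25.8 in somatosensory cortex and 35.6 in thalamus, while the other KO libraries of these regions held at most 0.22 CPM. In striatum KO 3 took that place, with 12.5 CPM, while the other 4 held at most 0.0527 CPM. Gm21685 moved with it, at 126 CPM in striatal KO 3 against 67.2 to 90.8 in the others. The labels do not say which libraries share an animal.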
